A study of Mus musculus with 15 samples.

Results

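The genes described here are those that raise and lower calcium in the cardiomyocyte at each beat: Ryr2, Casq2, Cacna1c, Cacnb2, Atp2a2, Pln, Camk2d and Slc8a1. They were chosen by name, and the deposited files list transcripts of 7 of the 8, since Slc8a1 has no transcript in them and was not analysed here. The 7 genes hold 35 listed transcripts, 32 of them in every file, among 12380 named genes in all. RNA was sequenced from whole hearts of male C57BL/6 mice, after removal of ribosomal RNA, with 5 mice per group. The AngII+QDG mice received angiotensin II together with QDG, an agent known here only by these letters. The AngII mice received angiotensin II, the peptide hormone that raises blood pressure and is infused to load the heart. The Control mice carry no treatment in their labels. The sources used here do not give the age of the mice or the dose and duration of either agent.

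In the cardiomyocyte, the action potential opens L-type calcium channels, whose pore is encoded by Cacna1c and whose beta subunit is encoded by Cacnb2. The calcium that enters opens ryanodine receptors (Ryr2) in the sarcoplasmic reticulum, which release the larger store held there by calsequestrin (Casq2), and contraction follows. For relaxation the SERCA pump (Atp2a2) returns calcium to the store under the restraint of phospholamban (Pln), while the sodium-calcium exchanger (Slc8a1) carries the rest out of the cell. The kinase CaMKII, whose main cardiac form is encoded by Camk2d, phosphorylates Ryr2, phospholamban and the L-type channel.

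Phospholamban is shown first because its kinase sites and its short reading frame bear on the results for Pln and Camk2d. The coding sequence was read from the GENCODE M21 transcripts on GRCm38 at chr10:53343864-53344022 on the plus strand. The capitals mark codons 16 and 17, the serine and threonine phosphorylated by protein kinase A and CaMKII. All 5 listed Pln transcripts carry this same reading frame of 52 codons, so they differ in their untranslated ends alone.
Pln: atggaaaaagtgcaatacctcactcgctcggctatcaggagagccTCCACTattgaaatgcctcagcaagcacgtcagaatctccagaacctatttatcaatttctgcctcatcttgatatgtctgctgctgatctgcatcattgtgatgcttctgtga

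The pump gene Atp2a2 makes the cardiac form SERCA2a and the widely expressed form SERCA2b, which part at their 3′ ends. Both are read on the minus strand of chromosome 5 on GRCm38, SERCA2a at chr5:122454291-122457333 across an intron and SERCA2b at chr5:122457151-122457333. Each line opens with the last 30 shared coding bases in lower case, and the capitals mark the bases of that form alone, with its stop codon.
SERCA2a: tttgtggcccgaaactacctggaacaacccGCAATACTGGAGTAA
SERCA2b: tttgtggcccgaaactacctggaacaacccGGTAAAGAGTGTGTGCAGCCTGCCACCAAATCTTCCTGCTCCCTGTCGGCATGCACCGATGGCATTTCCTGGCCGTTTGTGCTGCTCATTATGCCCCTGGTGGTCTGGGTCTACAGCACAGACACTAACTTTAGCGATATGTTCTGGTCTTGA
SERCA2a thus ends after 998 codons and SERCA2b after 1044. This difference of ends is what allows their levels to be given separately below.

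The Camk2d transcripts on which the results turn differ in their coding exons as well. Camk2d-228 carries 102 coding bases that Camk2d-226 lacks, shown in capitals from chr3:126801747-126810653 on the plus strand of GRCm38 with 15 shared bases on each side. Camk2d-226 in turn ends in a coding exon that Camk2d-204 lacks, shown in capitals from chr3:126840351-126841551.
Camk2d-228 against Camk2d-226: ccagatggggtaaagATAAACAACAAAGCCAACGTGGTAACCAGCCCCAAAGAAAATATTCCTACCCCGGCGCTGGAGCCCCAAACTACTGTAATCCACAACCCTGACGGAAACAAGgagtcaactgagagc
Camk2d-226 against Camk2d-204: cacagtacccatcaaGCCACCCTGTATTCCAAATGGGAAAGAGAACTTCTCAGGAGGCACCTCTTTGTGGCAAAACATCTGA

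Levels are given as FPKM, the number of fragments scaled to transcript length and to library size, and a gene's level is the sum over its listed transcripts. Depth, read from the smallest steps of the values, was 51.6 to 78.3 per library in units of 1000000 fragments, if a step is 1 fragment. The libraries differed in how short and long transcripts were represented. The log2 level of coding transcripts under 1000 nt minus that of those from 3000 nt was 0.67 to 0.91 in AngII+QDG libraries, 0.79 to 0.99 in AngII libraries and 1.02 to 1.46 in Control libraries, so that no Control library overlapped the others. Of the transcripts in a file, 4.86 to 6.71% were listed at 0 in AngII+QDG, 4.96 to 7.10% in AngII and 6.93 to 20.6% in Control, the last value from Control 5. The summed level of 9 listed cardiomyocyte markers was 32759 to 51195 FPKM in AngII+QDG, 38228 to 45139 in AngII and 36801 to 57854 in Control, and 0 of the 9 were called by limma in any comparison. At an unadjusted p under 0.05 there were 1 in AngII over Control, 0 in AngII+QDG over AngII and 3 in AngII+QDG over Control. Of the atrial markers, Myl7 averaged 0.921 FPKM in AngII and 1.88 FPKM in Control, and Myl4 1.07 and 1.52 FPKM. Nppa averaged 479 FPKM in AngII and 297 FPKM in Control, and Sln is not listed. How much atrial tissue the samples held was not tested. In whole hearts, fewer cells of a type and less RNA per cell cannot be told apart.

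The members were compared with limma on log2(FPKM + 1) across all 12258 genes that passed a filter of 0.5 FPKM in 5 libraries, and all 7 members passed it. Adjusted p-values below are Benjamini-Hochberg values of this fit over all genes at a threshold of 0.05, and fold changes on this scale understate the change of low genes. The median over all genes lay at 0.20 for AngII against Control, 0.18 for AngII+QDG against Control and −0.02 for AngII+QDG against AngII. Changes of the members are therefore also given relative to these medians. The Control libraries serve both contrasts with Control, and the AngII libraries serve both contrasts with AngII, so the values are given side by side and are not independent of each other.

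In AngII hearts, 2 of the 7 members rose over Control hearts: Ryr2, the gene of the release channel, and Camk2d, that of the kinase. The Ryr2 level is in large part that of retained-intron transcripts, as given below. Of all genes, 13.4% were called in this comparison, 11.9% as higher and 1.48% as lower. The other 5 members did not pass the test, with log2 changes between −0.59 for Cacnb2 and 0.47 for Casq2. The median log2 change of the 7 members was 0.30, against 0.20 over all genes. The direction of calls over all genes depended on the scaling, since 406 genes were called higher and 412 lower after quantile normalization, and 455 higher and 886 lower after median scaling.

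In AngII+QDG hearts compared with AngII hearts, 0 of the 7 members passed the test by limma, and 0 had an unadjusted p under 0.05. Across all genes 0% were called, and 4.72% (579 of 12258) had such an unadjusted p. The members had a median log2 change of 0.06, against −0.02 over all genes. The 95% intervals of the single members leave room for changes of some size, as given with each gene below.

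Camk2d was the 1 member of the 7 that rose in AngII+QDG hearts over Control hearts. Of all genes, 19.4% were called, 16.1% as higher and 3.31% as lower, and this split turned to 983 higher and 999 lower after quantile normalization and to 990 higher and 1696 lower after median scaling. All 7 members had a positive log2 change, with a median of 0.54 against 0.18 over all genes, and 4 of them had an unadjusted p under 0.05, against 34% of all genes.

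**Figure D1:**
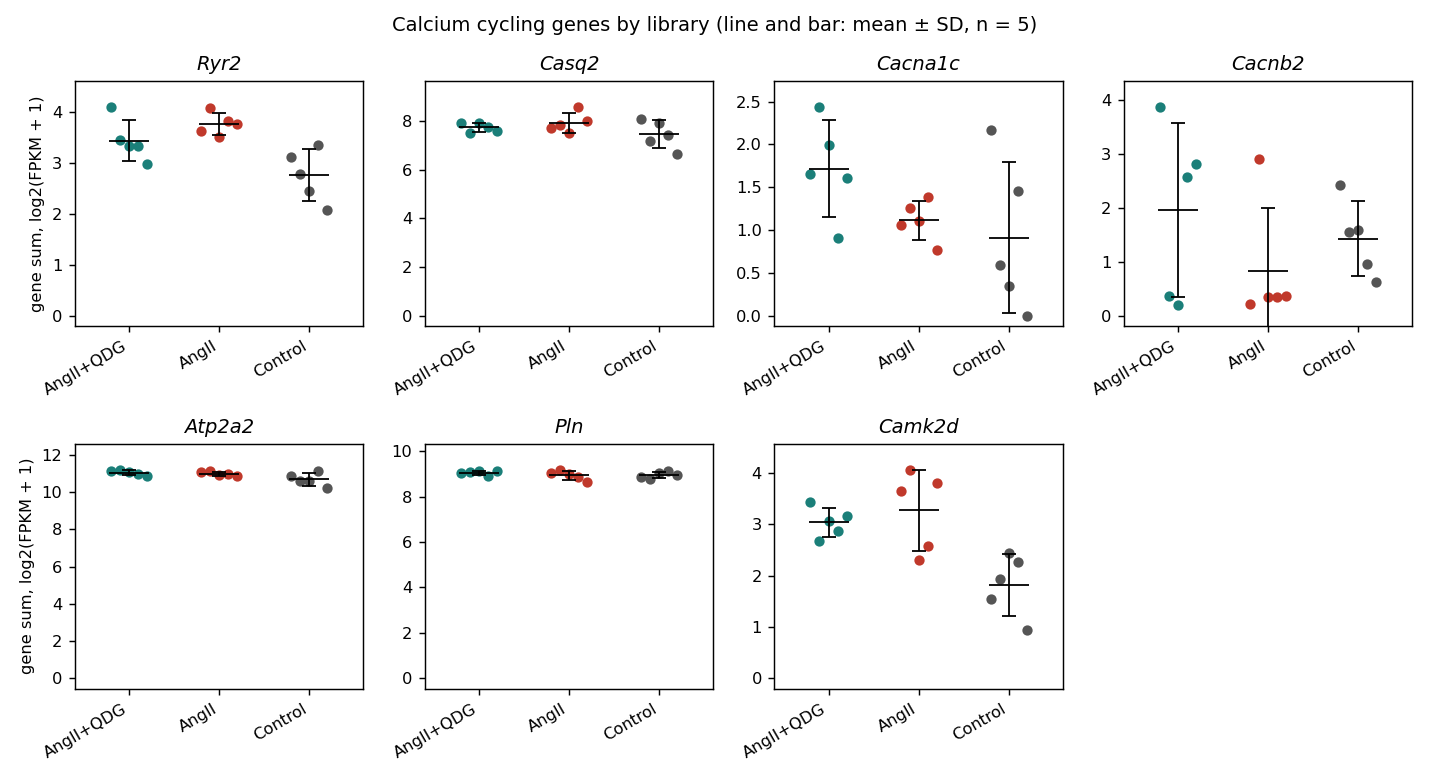
Gene level of each of the 7 members in every library as log2(FPKM + 1), with AngII+QDG, AngII and Control libraries from left to right; points are libraries, and the line and bar are the mean ± SD of the log2 values (n = 5). The 5 AngII points of Ryr2 lie above all 5 Control points, the 5 AngII+QDG points of Camk2d lie above all 5 Control points, and the Pln points of the groups overlap.

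**Figure D2:**
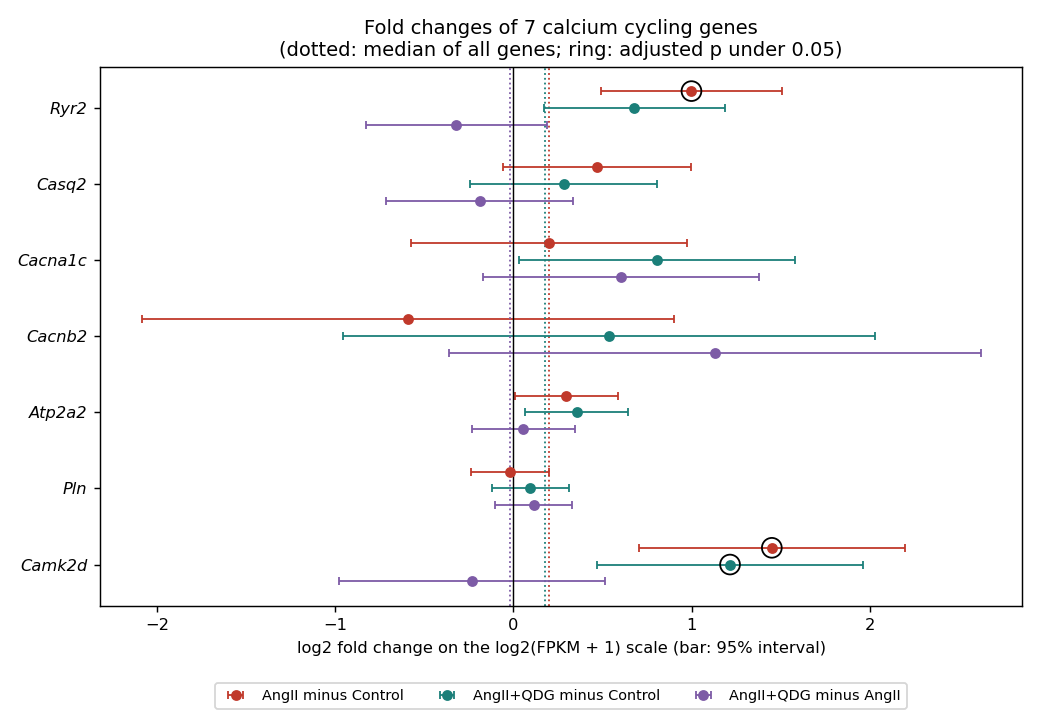
Log2 fold change of each member on the log2(FPKM + 1) scale with its 95% interval in the 3 comparisons; the dotted line is the median of all genes and a ring marks an adjusted p under 0.05. Rings stand on Ryr2 and Camk2d for AngII over Control and on Camk2d for AngII+QDG over Control.

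The members span a wide range of levels. Per kilobase, Atp2a2 was the highest in every group, at 2112 ± 189.7 FPKM in AngII+QDG, 2029 ± 149 FPKM in AngII and 1684 ± 400.4 FPKM in Control (SD, n = 5 each). Pln followed, with 532 ± 33.5 FPKM in AngII+QDG, 495 ± 68.9 FPKM in AngII and 499 ± 47.3 FPKM in Control. Casq2 was next, with 213 ± 27.6 FPKM in AngII+QDG, 249 ± 76.9 FPKM in AngII and 185 ± 69.7 FPKM in Control. The lowest Atp2a2 library lay above the highest Pln library, and the lowest Pln library, at 397 FPKM, lay above the highest Casq2 library, at 379 FPKM. Ryr2, Camk2d, Cacnb2 and Cacna1c all lay at or below 16.02 FPKM, and their order is not fixed: Ryr2 and Camk2d overlapped in every group, as did Cacnb2 and Cacna1c. These 4 levels are sums over the listed transcripts alone, which for Ryr2 and Cacna1c do not include the longest coding transcript.

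Ryr2 encodes the channel through which the sarcoplasmic reticulum releases its calcium (chr13:11553102-12106945, minus strand, GRCm38). Its level in the libraries was 16.02, 9.91, 8.99, 9.06 and 6.89 FPKM in AngII+QDG, 11.3, 15.8, 10.4, 12.997 and 12.5 FPKM in AngII, and 7.65, 5.88, 4.46, 9.22 and 3.20 FPKM in Control. The lowest AngII library lay above the highest Control library, while the AngII+QDG libraries reached from below that Control library to above every AngII library. Of all genes, 10.1% were higher in AngII than in Control with no overlap of the groups.

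Ryr2 averaged 12.6 ± 2.06 FPKM in AngII hearts and 6.08 ± 2.41 FPKM in Control hearts (SD, n = 5 each). This rise was 1.00 ± 0.24 on the log2 scale (SE, 95% interval 0.49 to 1.51), or 0.80 relative to the median of all genes, with an adjusted p of 0.0222 by limma. AngII+QDG hearts averaged 10.2 ± 3.45 FPKM. Their log2 difference from AngII was −0.32 (95% interval −0.83 to 0.19, adjusted p = 0.998) and from Control 0.68 (95% interval 0.17 to 1.19, adjusted p = 0.0581), and neither passed the test by limma. The AngII rise did not pass the test when the short-to-long balance of each library entered the fit as a covariate (0.03, adjusted p = 0.993), when the length trend of each library was removed (0.64, adjusted p = 0.0635), or without Control 3 and Control 5 (0.67, adjusted p = 0.112). It also missed the threshold without AngII 2 (0.92, adjusted p = 0.0600), without AngII 4 (0.99, adjusted p = 0.0514), without AngII 5 and AngII+QDG 4 (1.00, adjusted p = 0.0632) and with the AngII and Control groups fitted alone (1.00, adjusted p = 0.0501). Calls over all genes fell as well, from 1639 to 0 with the covariate, 342 with the length trend removed and 97 without Control 3 and Control 5. With the 2 groups fitted alone 317 genes were called. No Control library overlapped the others in balance, so the covariate fit cannot separate group from balance. The AngII+QDG difference from Control passed the threshold without Control 4 (0.83, adjusted p = 0.0196), Control 1 (0.77, adjusted p = 0.0484) or AngII+QDG 5 (0.79, adjusted p = 0.0476). Calls over all genes in these 3 fits were 3025, 2235 and 1657, against 2377 as reported.

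The Ryr2 values come from fragments of the gene, and in large part not from coding transcripts. Of the 7 listed transcripts 3 are protein-coding, and the others are retained-intron transcripts. The retained-intron Ryr2-213 and Ryr2-209 held a mean of 27.2% and 14.6% of the Ryr2 level over all 15 libraries. Ryr2-210 and Ryr2-211 held 9.87% and 8.14%. The coding Ryr2-203, Ryr2-207 and Ryr2-204 held 22.8%, 9.18% and 8.14%. GENCODE M21 holds 14 transcripts of Ryr2, 7 of which are listed, and the full-length transcript of 16814 nt and 105 exons is not among them. The listed transcripts cover 53.6% of its exonic bases and 57.1% of its coding bases, and the longest of them, Ryr2-203, has 4924 nt and spans exons 1 to 26. Genes whose longest listed transcript has 3000 to 5000 nt were called higher in 17.0% of cases for AngII over Control, against 3.23% of genes under 1000 nt, of which 8.12% were called lower.

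Ryr2-203, the 5′ part of the gene, stood at 3.25, 2.03, 2.05, 2.23 and 1.18 FPKM in AngII+QDG, 2.45, 3.04, 2.48, 2.54 and 3.43 FPKM in AngII, and 2.004, 1.15, 1.11, 2.89 and 0.753 FPKM in Control. Control 4, at 2.89 FPKM, lay within the AngII values. Ryr2-211, which spans exons 59 to 78, stood at 2.70, 0.975, 1.05, 1.32 and 0.540 FPKM in AngII+QDG, 1.12, 1.77, 0.794, 1.33 and 0.791 FPKM in AngII, and 0.0777, 0.384, 0.00359, 0.626 and 0.0534 FPKM in Control. All 5 AngII libraries lay above the Control libraries for this middle stretch, as held for 6.33% of all transcripts, and AngII+QDG 5 was the one library of its group that did not.

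Ryr2-204 (exons 69 to 80) stood at 3.54, 0.945, 0.746, 1.09 and 0.864 FPKM in AngII+QDG and 1.02, 1.81, 0.362, 1.56 and 1.14 FPKM in AngII, and in Control it was listed at 0 in 3 libraries and at 0.454 and 0.608 FPKM in the others. Ryr2-207, which reaches toward the 3′ end (exons 76 to 94), was uneven within groups, with 2.85, 2.27, 0.399, 0.0440 and 0.00885 FPKM in AngII+QDG, 2.35, 2.13, 2.01, 2.29 and 0.310 FPKM in AngII, and at most 0.409 FPKM in Control. Ryr2-210 (exons 76 to 80) stood at 0.610, 0.943, 0.959, 0.618 and 0.550 FPKM in AngII+QDG and 1.14, 1.41, 1.16, 1.02 and 1.31 FPKM in AngII. These groups did not overlap, as held for 1.14% of all transcripts, and the log2 difference of −0.35 did not pass the test (adjusted p = 1.00 by limma). Ryr2-211, a retained-intron transcript, was alone among the Ryr2 transcripts called in a comparison, as higher in AngII+QDG over Control. Of the Control libraries only Control 4 reached the 0.5 FPKM of the filter. Ryr2-211 thus entered the fit through the groups given angiotensin II, so its test is not given and its values are a description.

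**Figure D3:**
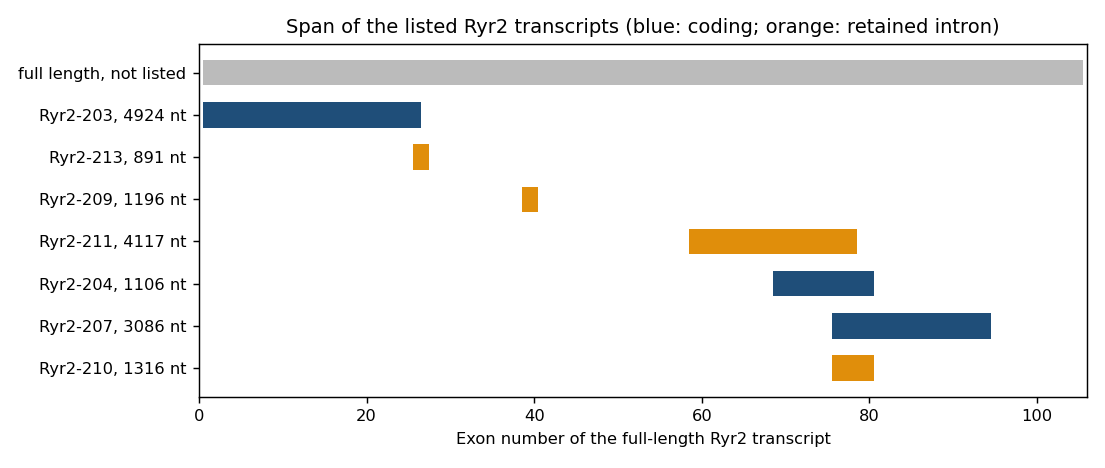
Exons of the 105-exon coding transcript of Ryr2 that each listed transcript spans, with coding transcripts in blue and retained-intron transcripts in orange. Ryr2-203 spans exons 1 to 26, Ryr2-211 exons 59 to 78 and Ryr2-207 exons 76 to 94, and no listed transcript spans the whole gene.

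Casq2 encodes calsequestrin, which binds calcium inside the sarcoplasmic reticulum. Its level was 239.6, 179, 241, 213 and 193 FPKM in AngII+QDG, 207, 228.4, 181, 379 and 251 FPKM in AngII, and 271, 144, 239, 170.2 and 99.8 FPKM in Control. The groups overlapped, with AngII 4 the highest library and Control 5 the lowest. The log2 difference was 0.47 ± 0.25 for AngII over Control (SE, 95% interval −0.06 to 1.00, adjusted p = 0.203), −0.19 for AngII+QDG over AngII (95% interval −0.71 to 0.34, adjusted p = 0.998) and 0.28 for AngII+QDG over Control (adjusted p = 0.449), and none passed the test by limma. Casq2-201, the full coding transcript, made up nearly the whole level in every library, while Casq2-203 reached at most 2.26 FPKM.

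Cacna1c encodes the pore of the L-type channel, and its low level limits what can be read from it. Its level was 2.14, 4.42, 2.97, 0.875 and 2.04 FPKM in AngII+QDG, 1.09, 1.38, 1.15, 1.61 and 0.703 FPKM in AngII, and 3.50, 0.506, 0.269, 1.75 and 0 FPKM in Control. Control 1 and Control 4 were above all AngII libraries, and in Control 5 all 3 listed transcripts were at 0. Cacna1c-211, a short transcript without an annotated reading frame, held 6.09 to 100% of the Cacna1c level in the other libraries, with a mean of 58.3%. In AngII 1, Control 2 and Control 3 it was the whole level, so the gene level is in large part not that of coding transcripts. The log2 difference was 0.20 for AngII over Control (95% interval −0.57 to 0.98, adjusted p = 0.736), 0.60 for AngII+QDG over AngII (95% interval −0.17 to 1.38, adjusted p = 0.998) and 0.81 for AngII+QDG over Control (95% interval 0.03 to 1.58, adjusted p = 0.133), and none passed the test by limma. Without Control 1 the last of these did (1.12, adjusted p = 0.0246).

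Of 27 Cacna1c transcripts in GENCODE M21, 3 are listed. The coding transcripts Cacna1c-224 and Cacna1c-226 were at 0 in many libraries, Cacna1c-226 in 3 AngII+QDG, 3 AngII and 3 Control libraries. Cacna1c-211, a short processed transcript of 715 nt without a reading frame in the annotation, stood at 1.55, 2.01, 1.13, 0.705 and 1.16 FPKM in AngII+QDG, 1.09, 0.614, 0.336, 0.659 and 0.482 FPKM in AngII, and 0.213, 0.506, 0.269, 0.575 and 0 FPKM in Control. All AngII+QDG libraries lay above all Control libraries, as held for 7.68% of all transcripts. This transcript rose by 0.81 on the log2 scale in AngII+QDG over Control (adjusted p = 0.0181 by limma), and it covers 2.58% of the exonic bases of the longest Cacna1c transcript.

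Cacnb2 encodes the beta subunit that brings the channel to the membrane, and it was the most uneven member. It stood at 13.6, 0.290, 0.145, 4.97 and 6.04 FPKM in AngII+QDG, 0.167, 6.51, 0.273, 0.265 and 0.284 FPKM in AngII, and 4.37, 1.92, 2.01, 0.949 and 0.536 FPKM in Control. High and low libraries occurred in the same group: 3 AngII+QDG libraries and AngII 2 were above every Control library, and the other 2 AngII+QDG and 4 AngII libraries were below all Control libraries. The log2 difference was −0.59 for AngII over Control (95% interval −2.09 to 0.90, adjusted p = 0.590), 1.13 for AngII+QDG over AngII (95% interval −0.36 to 2.62, adjusted p = 0.998) and 0.54 for AngII+QDG over Control (adjusted p = 0.626), and none passed the test by limma. Cacnb2-203, with 4.16 FPKM in Control 1, is listed in the AngII and Control files and not in the AngII+QDG files.

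Atp2a2 encodes the SERCA pump that refills the store (chr5:122453513-122502225, minus strand). Its level was 2231, 2341, 2144, 1970.2 and 1875 FPKM in AngII+QDG, 2145, 2216, 1912, 2004 and 1868 FPKM in AngII, and 1828, 1571, 1541, 2278 and 1199.6 FPKM in Control. Of the Control libraries 4 lay below all AngII+QDG and AngII libraries, and Control 4 lay among the highest. The log2 difference was 0.30 ± 0.13 for AngII over Control (SE, 95% interval 0.01 to 0.59, adjusted p = 0.146), 0.06 for AngII+QDG over AngII (95% interval −0.23 to 0.34, adjusted p = 0.998) and 0.35 for AngII+QDG over Control (95% interval 0.07 to 0.64, adjusted p = 0.0777). None passed the test by limma, and without Control 4 Atp2a2 was called higher in AngII over Control (0.42, adjusted p = 0.0230) and in AngII+QDG over Control (0.47, adjusted p = 0.00973). Calls over all genes rose there too, from 1639 to 2487 and from 2377 to 3025. The sign of the AngII difference turned under median scaling, to −0.04.

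Nearly all of the pump RNA was assigned to SERCA2a. The mean share of the Atp2a2 level in SERCA2a was 94.9% in AngII+QDG, 95.5% in AngII and 96.6% in Control. SERCA2a stood at 2064, 2242, 2044, 1881 and 1786 FPKM in AngII+QDG, 2036, 2102, 1844, 1911 and 1790.2 FPKM in AngII, and 1689.9, 1529.9, 1515, 2201 and 1181 FPKM in Control. SERCA2b, read from Atp2a2-201 alone, stood at 146, 81.0, 83.0, 68.5 and 73.0 FPKM in AngII+QDG, 90.1, 95.4, 54.4, 81.3 and 64.4 FPKM in AngII, and 132, 28.5, 13.1, 59.2 and 5.45 FPKM in Control. Atp2a2-203, annotated for nonsense-mediated decay, has the same coding length of 3132 nt and is not counted in these values. It stood at 11.5 to 15.3 FPKM in AngII+QDG, 8.18 to 14.8 FPKM in AngII and 1.43 to 11.9 FPKM in Control. For SERCA2b, 3 Control libraries lay below every AngII+QDG and AngII library, and Control 1 lay above all of them but AngII+QDG 1. On the log2 scale SERCA2b differed by 1.39 for AngII over Control (adjusted p = 0.199) and 1.59 for AngII+QDG over Control (adjusted p = 0.128), SERCA2a by 0.28 (adjusted p = 0.217) and 0.33 (adjusted p = 0.137), and none passed the test by limma.

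Pln encodes phospholamban, the small membrane protein that slows the pump until it is phosphorylated. Its level was 533, 538, 555, 476 and 559 FPKM in AngII+QDG, 519.7, 581, 512, 465 and 397 FPKM in AngII, and 467, 445, 533, 560.3 and 490.4 FPKM in Control. The groups overlapped almost fully. The log2 difference was −0.02 ± 0.10 for AngII over Control (SE, 95% interval −0.24 to 0.20, adjusted p = 0.921), 0.11 for AngII+QDG over AngII (95% interval −0.10 to 0.33, adjusted p = 0.998) and 0.10 for AngII+QDG over Control (adjusted p = 0.543), and none passed the test by limma. These intervals were the narrowest of the 7 members.

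The balance between pump and inhibitor was compared as the log2 ratio of Pln to Atp2a2, both taken with 1 FPKM added. It averaged −1.98 ± 0.15 in AngII+QDG, −2.04 ± 0.14 in AngII and −1.73 ± 0.31 in Control (SD, n = 5 each). Its difference was −0.32 for AngII over Control (p = 0.0714, adjusted p = 0.381), 0.06 for AngII+QDG over AngII (p = 0.571, adjusted p = 0.661) and −0.26 for AngII+QDG over Control (p = 0.127, adjusted p = 0.381), by exact two-sided permutation tests. The ratio of Casq2 to Ryr2, store protein to release channel, differed by −0.53 for AngII over Control (p = 0.111, adjusted p = 0.381, exact two-sided permutation test). None of the 9 ratio tests passed, the third pair being Cacnb2 to Cacna1c, and the smallest p that the exact test can give is 0.00794.

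In the Pln transcripts, 2 libraries stood far apart that at gene level were the lowest of their groups by less, AngII+QDG 4 at 476 FPKM and AngII 5 at 397 FPKM. Without them the log2 difference of the Pln gene level for AngII over Control was 0.059, against −0.02 with them. Pln-201, the longest at 2334 nt, stood at 306, 368, 371, 6.14 and 335 FPKM in AngII+QDG, 333, 358, 343, 314 and 5.30 FPKM in AngII, and 332, 335, 356, 391 and 295 FPKM in Control. Pln-205, whose 531 bases lie wholly inside Pln-201, stood at 147, 84.5, 81.1, 420.4 and 135 FPKM in AngII+QDG, 122, 147, 85.8, 76.4 and 355 FPKM in AngII, and 88.1, 66.6, 99.1, 106 and 156 FPKM in Control. In AngII+QDG 4 and AngII 5 the short transcript therefore held 88.4% and 89.6% of the gene's FPKM, against 14.6 to 31.7% in the other 13 libraries.

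Pln-206, a transcript of 1854 nt, was low in the same libraries, at 2.21 FPKM in AngII+QDG 4 and 1.20 FPKM in AngII 5, against 29.7 to 40.8 FPKM in the other AngII+QDG libraries, 21.2 to 26.5 FPKM in the other AngII libraries and 5.81 to 23.8 FPKM in Control. Since FPKM is per length, a shift to the short form changes the number of fragments more than the level. The fragment steps of Pln summed to 14754 in AngII+QDG 4 and 18517 in AngII 5, against 46938 to 77310 elsewhere. Over 2163 genes, the share whose leading transcript was another one than in most libraries was 9.29 to 10.7% in AngII+QDG and 8.83 to 9.66% in AngII, so these libraries did not stand apart by this measure, while Control 5 had 17.8%. Pln-202, a transcript of 1715 nt at 4.01 to 10.4 FPKM, was the one Pln transcript that rose in a comparison, by 0.63 in AngII+QDG over Control (adjusted p = 0.0344 by limma).

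**Figure D4:**
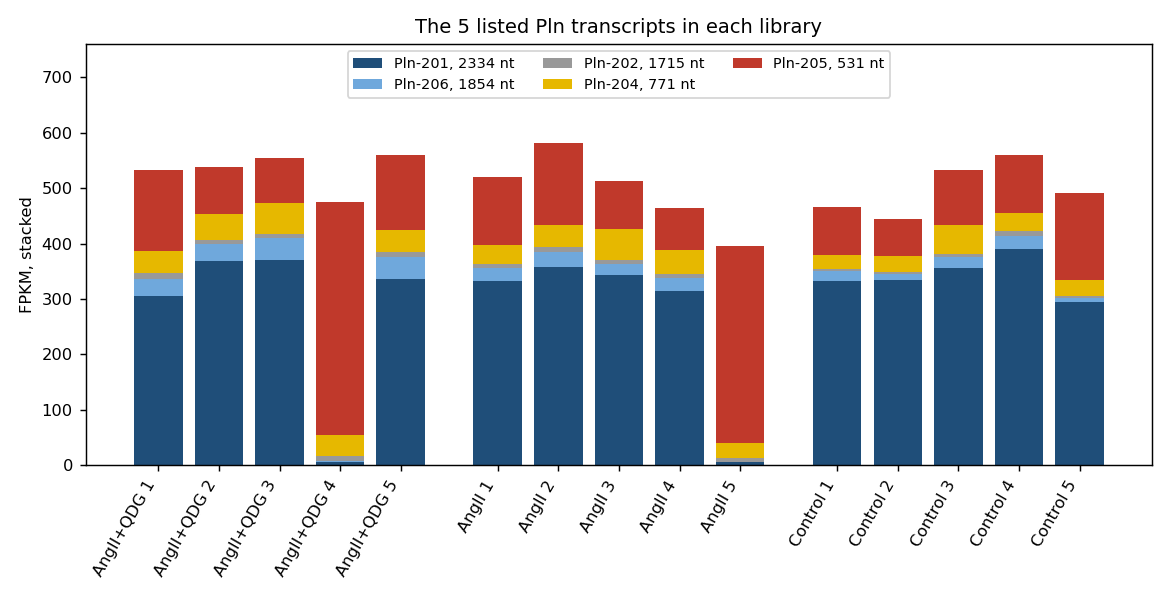
FPKM of the 5 listed Pln transcripts stacked within each library, with AngII+QDG, AngII and Control libraries from left to right. The bar of Pln-201 nearly vanishes in AngII+QDG 4 and AngII 5, where Pln-205 reaches 420.4 and 355 FPKM, and the summed height stays between 397 and 581 FPKM.

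Camk2d encodes the delta form of CaMKII (chr3:126596302-126846326, plus strand), and it was the member that rose in both groups given angiotensin II. Its level was 9.79, 5.41, 7.33, 6.35 and 7.91 FPKM in AngII+QDG, 11.5, 15.7, 3.91, 4.96 and 12.9 FPKM in AngII, and 1.92, 2.85, 4.41, 3.80 and 0.908 FPKM in Control. Every AngII+QDG library lay above every Control library, as held for 12.8% of all genes. In AngII, 3 libraries lay far above Control, while AngII 3 lay below the highest Control library.

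Camk2d averaged 9.80 ± 5.14 FPKM in AngII hearts and 2.78 ± 1.41 FPKM in Control hearts (SD, n = 5 each), a rise of 1.45 ± 0.35 on the log2 scale (SE, 95% interval 0.70 to 2.20), or 1.25 relative to the median of all genes (adjusted p = 0.0231 by limma). AngII+QDG hearts averaged 7.36 ± 1.66 FPKM and rose over Control by 1.22 (95% interval 0.47 to 1.96), or 1.04 relative to the median (adjusted p = 0.0264 by limma). The log2 difference of AngII+QDG from AngII was −0.23 (95% interval −0.98 to 0.51, adjusted p = 0.998) and did not pass the test.

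The calls of Camk2d did not hold in every setting. Its longest listed transcript has 5524 nt, and of all genes whose longest listed transcript exceeds 5000 nt, 23.3% were called higher in AngII over Control and 32.9% in AngII+QDG over Control. With the short-to-long balance as a covariate its changes were 0.79 for AngII over Control (adjusted p = 0.917) and 0.49 for AngII+QDG over Control (adjusted p = 0.825), with the length trend removed 1.08 (adjusted p = 0.0710) and 0.82 (adjusted p = 0.101), and without Control 3 and Control 5 they were 1.36 (adjusted p = 0.0744) and 1.12 (adjusted p = 0.0731). For AngII over Control the call was also lost without AngII 2 (1.25, adjusted p = 0.0619), without AngII 5 (1.32, adjusted p = 0.0566), without AngII 5 and AngII+QDG 4 (1.32, adjusted p = 0.0710) and with these groups fitted alone (adjusted p = 0.0621). For AngII+QDG over Control it was lost without AngII+QDG 1 (1.12, adjusted p = 0.0682), AngII+QDG 5 (1.19, adjusted p = 0.0549), Control 1 (1.15, adjusted p = 0.0507) or Control 5 (0.99, adjusted p = 0.0607). With the covariate, 0 of all genes were called in either comparison with Control, so that loss is not particular to Camk2d.
Camk2d is also expressed outside the cardiomyocyte. Of the 6 smooth muscle and pericyte markers, 1 (Rgs5, 0.60) was called higher in AngII over Control, while Tagln stood at −0.06 and Cnn1 at 0.09. In AngII+QDG over Control, 2 of the 7 fibroblast markers (Lum, 0.68, and Pdgfra, 0.72) and 1 of the 6 endothelial markers (Kdr, 0.83) were called higher, while Tcf21 stood at −0.08, Fabp4 at −0.10 and Tie1 at −0.72. Of the 5 red cell markers 1 (Hba-a2, −2.78) was called lower there. These calls stand against 11.9% of all genes called higher in AngII over Control, and 16.1% called higher and 3.31% lower in AngII+QDG over Control. The summed level of the 7 fibroblast markers was 626 to 879 FPKM in AngII+QDG, 612 to 883 FPKM in AngII and 443 to 699 FPKM in Control. That of the 6 endothelial markers was 641 to 944 FPKM in AngII+QDG, 716 to 1008 FPKM in AngII and 593 to 895 FPKM in Control, and that of the 6 smooth muscle and pericyte markers 179 to 285 FPKM in AngII+QDG, 225 to 347 FPKM in AngII and 131 to 237 FPKM in Control. The part of these cells in the Camk2d values was not tested.

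Among the 28 member transcripts that could be tested, 3 were called higher in AngII over Control, against 2.5% of all 28475 transcripts called and 2.23% called higher, and all 3 are transcripts of Camk2d. Over Control, 7 were called higher in AngII+QDG, against 6.91% of all transcripts called and 5.93% called higher, 4 of them from Camk2d and the others Pln-202, Cacna1c-211 and Ryr2-211. Between AngII+QDG and AngII, 0 were called by limma and 4 had an unadjusted p under 0.05, against 0.0105% of all transcripts called and 4.66% with such an unadjusted p. The called Camk2d transcripts, Camk2d-204, Camk2d-213 and Camk2d-225 in both comparisons and Camk2d-226 in AngII+QDG over Control, were below the 0.5 FPKM of the filter in every Control library. They passed the filter only through libraries of the groups given angiotensin II, so their tests against Control are not given and their values below are a description. Ryr2-211 reached 0.5 FPKM in Control 4 alone among the Control libraries, so its test is not given either.

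Camk2d-204, a coding transcript of 478 codons, was listed at 0 in all 5 Control libraries and stood at 1.54, 0.567, 1.44, 1.15 and 0.647 FPKM in AngII+QDG and at 1.82, 3.07, 0.848, 0.524 and 2.85 FPKM in AngII. Other Camk2d transcripts were above 0 in every Control library, so the gene itself was detected there.

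Camk2d-213, a transcript annotated for nonsense-mediated decay, stood at 0.707 to 1.43 FPKM in AngII+QDG and 0.227 to 1.99 FPKM in AngII, above the 0.0186 to 0.138 FPKM of Control. Camk2d-225, a retained-intron transcript that shares no exon with the longest coding transcript, stood at 0.449 to 0.986 FPKM in AngII+QDG and 0.348 to 0.585 FPKM in AngII, above the 0.0144 to 0.0641 FPKM of Control. Neither of these transcripts is annotated to code for the full-length kinase.

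The coding transcripts Camk2d-226 and Camk2d-228, which differ by the 102 bases shown above, were distributed differently between AngII+QDG and AngII. Camk2d-226, without these bases, stood at 1.89, 1.75, 3.06, 1.93 and 1.84 FPKM in AngII+QDG, 0.182, 0.359, 0.726, 1.03 and 0.0924 FPKM in AngII, and at most 0.119 FPKM in Control. Camk2d-228, with them, stood at 1.24, 0.0218, 0, 0.0431 and 0.00253 FPKM in AngII+QDG, 5.70, 7.14, 1.23, 1.06 and 6.72 FPKM in AngII, and 0.756, 0.00559, 0.880, 1.96 and 0.331 FPKM in Control. The lowest AngII+QDG library of Camk2d-226 lay above the highest AngII library, where 1.14% of all transcripts had groups that did not overlap, and Camk2d-228 was near 0 in 4 of 5 AngII+QDG libraries.

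Taken as a share of the 2 transcripts, Camk2d-228 made up 39.5, 1.23, 0, 2.19 and 0.137% in AngII+QDG, 96.9, 95.2, 63.0, 50.9 and 98.6% in AngII, and 99.6, 67.2, 100, 99.9 and 73.5% in Control. The share in every AngII+QDG library lay below that in every AngII and Control library. The difference of Camk2d-226 between AngII+QDG and AngII was 1.09 ± 0.17 on the log2 scale (adjusted p = 0.0986 by limma, 0.0482 to 0.431 over the alternatives), and that of Camk2d-228 was −1.93 ± 0.43 (adjusted p = 0.507 by limma), so neither passed the test.
The files of the AngII+QDG libraries list another set of transcripts than those of the AngII and Control libraries, 31734 against 31685 with 29996 in both. For Camk2d the AngII+QDG files list Camk2d-205 and not Camk2d-206, so the group and the transcript set cannot be told apart for this split. Camk2d-205 stood at 0, 0.799, 0, 0 and 1.19 FPKM in AngII+QDG, and Camk2d-206 at 0.0157 to 0.0489 FPKM in AngII and 0.0131 to 2.97 FPKM in Control. With transcripts listed in every file alone, the Camk2d gene level rose by 1.84 in AngII over Control (adjusted p = 0.0086 by limma). The AngII and Control files share their transcript list, so this value does not show how the comparisons with AngII+QDG stand on equal sets. The Camk2d gene level of AngII+QDG is a sum over a different set than that of the other groups. Camk2d-206 averaged 1.00 FPKM in Control, where the gene level averaged 2.78 FPKM, and Camk2d-205 averaged 0.397 FPKM in AngII+QDG. The rise of 1.22 in AngII+QDG over Control therefore compares unlike sums.

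**Figure D5:**
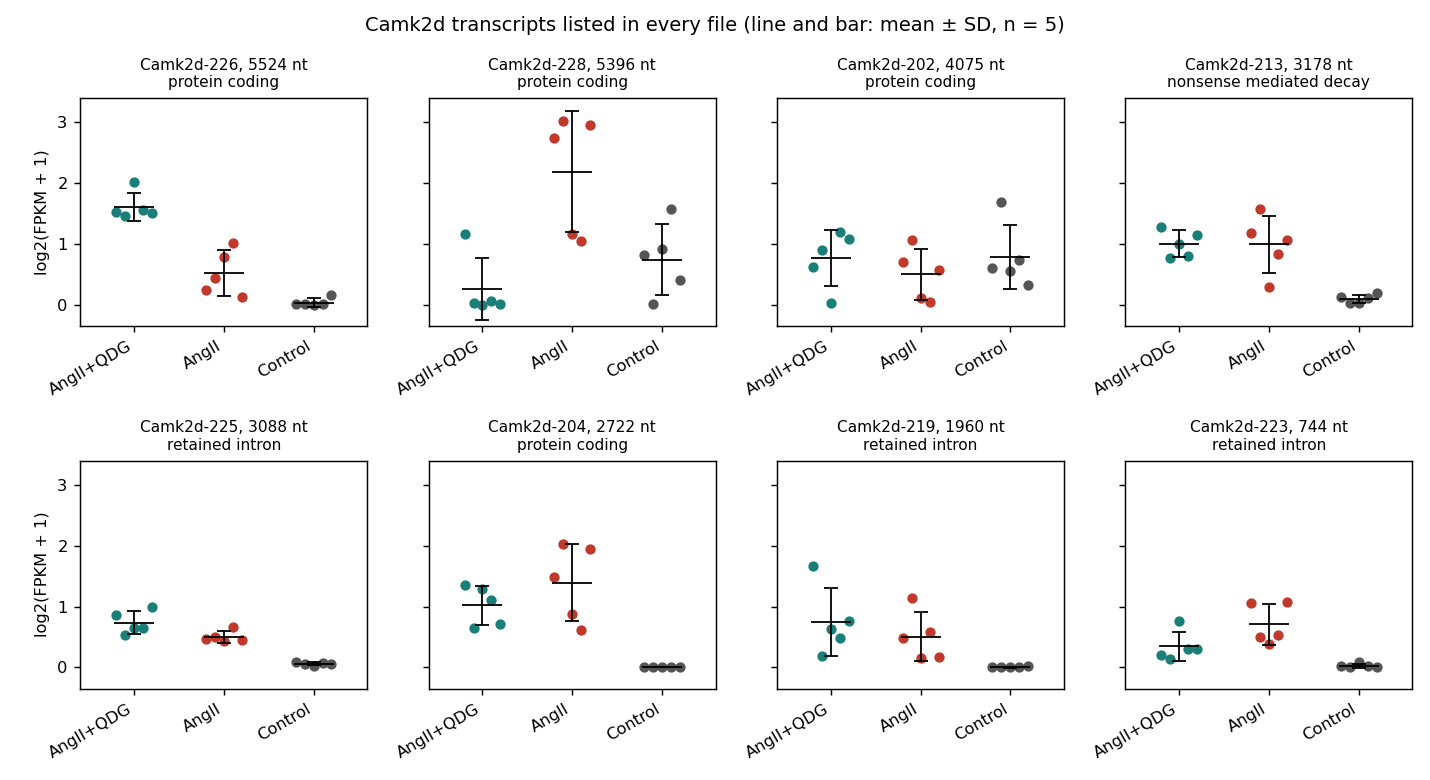
Level of the 8 Camk2d transcripts listed in every file as log2(FPKM + 1) in each library, with AngII+QDG, AngII and Control libraries from left to right. Camk2d-204 is at 0 in all Control libraries, the AngII+QDG points of Camk2d-226 lie above the AngII points, and Camk2d-228 is highest in AngII 1, AngII 2 and AngII 5.

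The surroundings of the members in the same pathway were read from 6 lists of other calcium genes, of which 88 of 103 genes are in the files. In AngII over Control, 14 of the 88 rose and 2 fell, where 11.9% of all genes were called higher and 1.48% lower, with a median log2 change of 0.25 against 0.20 over all genes. Between AngII+QDG and AngII, 0 of the 88 were called by limma and 4 had an unadjusted p under 0.05, with a median of −0.02, equal to that of all genes at this precision. For AngII+QDG over Control, 15 rose and 5 fell, where 16.1% of all genes were called higher and 3.31% lower, with a median of 0.25 against 0.18 over all genes. The 5 include Cacnb3, which was below the 0.5 FPKM of the filter in every AngII+QDG library. With the length trend removed 1 pathway gene, Prkar1a, was called in AngII over Control, and with the balance as a covariate 0 were called. Of all genes, 342 and 0 were called in these settings.

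Among the 21 genes of calcium release and storage, 2 rose and 1 fell in AngII over Control (11.9% and 1.48% of all genes), and 3 rose and 1 fell in AngII+QDG over Control (16.1% and 3.31% of all genes). Asph, whose locus also encodes junctin, a partner of Ryr2, averaged 80.8 ± 6.87 FPKM in AngII and 52.2 ± 8.49 FPKM in Control (SD, n = 5 each), a log2 rise of 0.63 (adjusted p = 0.0104 by limma), and it rose by 0.53 in AngII+QDG over Control (adjusted p = 0.0084 by limma). The inositol trisphosphate receptor Itpr3 rose by 0.43 in AngII over Control and by 0.46 in AngII+QDG over Control. These calls held in 8 of 15 and 13 of 15 refits with 1 library left out. Itpr1, another receptor of this family, rose in AngII+QDG over Control, with 3.24 ± 1.05 FPKM in AngII+QDG and 1.03 ± 0.216 FPKM in Control (log2 change 1.03, adjusted p = 0.0053 by limma). S100a1, a small calcium-binding protein that acts on Ryr2 and the pump, fell by 0.37 in AngII, to 912 ± 62.0 FPKM against 1195 ± 211 FPKM in Control (adjusted p = 0.0442 by limma), and fell by 0.42 in AngII+QDG over Control. With 1 library left out, the call of S100a1 held in 3 of 15 refits for AngII and 14 of 15 for AngII+QDG. With the library balance as a covariate its change was 0.03 in both comparisons.

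Of the 23 listed genes of calmodulin and kinase signalling, 6 rose and 0 fell in each comparison with Control, against 11.9% of all genes called higher for AngII and 16.1% for AngII+QDG. The medians of the list were 0.40 for AngII and 0.49 for AngII+QDG, against 0.20 and 0.18 over all genes. Prkar1a and Prkar2a, regulatory subunits of protein kinase A, rose by 0.73 and 0.53 in AngII over Control and by 0.68 and 0.59 in AngII+QDG over Control. Camk2a, a sister gene of Camk2d, rose by 0.68 in AngII and by 0.86 in AngII+QDG, and Ppp3r1, the regulatory subunit of the phosphatase calcineurin, by 0.49 and 0.62. Among the 8 listed pump regulators, Ppp1r3a, a targeting subunit of protein phosphatase 1, rose by 0.76 in AngII and 0.97 in AngII+QDG over Control. Ppp1ca, a catalytic subunit of that phosphatase, fell by 0.28 in AngII+QDG over Control, a call that held in 8 of 15 refits with 1 library left out.

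Of the 12 listed partners of the voltage-gated channels, 0 were called in AngII over Control by limma and 1 had an unadjusted p under 0.05. Cacnb3, another beta subunit, was between 0 and 0.125 FPKM in the AngII+QDG libraries, 0.311 to 2.05 FPKM in AngII and 1.37 to 2.81 FPKM in Control. It passed the 0.5 FPKM filter only through AngII and Control libraries, so its test for AngII+QDG is not given and these values are a description. The part of the other transcript set of the AngII+QDG libraries in them was not tested. Cacna1h, the pore of a T-type channel, fell by 1.10 in AngII+QDG over Control (adjusted p = 0.0164 by limma). Of the 12 listed exchangers and pumps of the plasma membrane, 4 rose and 1 fell in AngII over Control (11.9% and 1.48% of all genes), and 3 rose and 1 fell in AngII+QDG over Control (16.1% and 3.31%). The plasma membrane calcium pump Atp2b4 rose by 0.85 in AngII and 1.01 in AngII+QDG, its relative Atp2b1 rose by 1.01 in AngII+QDG, and Fxyd1, the regulator of the sodium pump, fell by 0.46 in AngII and by 0.66 in AngII+QDG. The sodium pump subunit Atp1b1 rose by 0.48 in AngII over Control, and the channel Trpm7 rose by 0.70 in AngII+QDG over Control. With 1 library left out, the call of Atp1b1 held in 3 of 15 refits and that of Trpm7 in 10 of 15. That of Fxyd1 in AngII held in 8 of 15.
Of the 12 genes of mitochondrial calcium uptake, Mcur1, a regulator of the uniporter, rose by 0.32 in AngII and 0.30 in AngII+QDG over Control, and Micu2, its gatekeeper, rose by 0.42 in AngII+QDG. With 1 library left out, the call of Mcur1 held in 3 of 15 refits for AngII and 1 of 15 for AngII+QDG. That of Micu2 held in 8 of 15. The sign of Mcur1 turned to −0.01 and −0.03 with the length trend removed.

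The genes whose profile over the 15 libraries was most like that of a member were found by the root mean square difference of centred log2(FPKM + 1) among 9226 coding genes. For Ryr2 these were Vegfa (0.18) and Gfod1 (0.21), against a median of 0.53 over all candidates. For Atp2a2 they were Hdlbp (0.041) and Hbs1l (0.085), and for Camk2d Tmem131 (0.37) and Smim15 (0.38). Pln was nearest to Tom1l1 (0.10), Casq2 to Alkbh4 (0.23) and Cox11 (0.24), Cacna1c to Hnrnph1 (0.35) and Acsl6 (0.37), and Cacnb2 had Dnmt3a (0.82) among its nearest. These values describe likeness over libraries that also share depth and length balance.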

How the data were processed

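The authors deposited 1 table per library with a value per transcript, read here as FPKM from the values, since the headers do not state a unit. Per the submitters' processing notes, GRCm38 and limma were used. The aligner, the quantifier and whether all files came from 1 run are not given. Transcripts were named with GENCODE M21, and 8634 assembled transcripts without a gene name entered only the transcript fit. FPKM times length fell within 0.1 of a whole multiple of a library's step for 96.3 to 97.1% of values, where chance gives 20%.

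Named transcripts were summed per gene. A filter of 0.5 FPKM in 5 libraries set which genes and transcripts entered the fit. The fit used limma 3.58.1 (R 4.3.3) on log2(FPKM + 1) with trended, robust variances and all 15 libraries together, and was tested on simulated data. Other steps used Python 3.11.15 and matplotlib 3.10.9. P-values measure the spread between these mice. The members and lists were chosen with earlier results of these data known. Named genes are the members, their transcripts, up to 4 called genes per pathway list by smallest p, and the 2 nearest profiles of each member, and 3 genes under this rule are left out of the text. Ratios of members were compared by exact permutation tests. Alternatives covered pseudocount, filter, scaling, samples, block, weights, transcript set, length and single libraries. The one without AngII 5 and AngII+QDG 4 was added after seeing the data. How reads shared between overlapping transcripts of a gene were split is not given, so single transcripts are less certain than gene levels.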

Additional observations from a re-analysis of the deposited data

Results flagged for a closer look

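Of 113 sets of 5 libraries tested for 1 library far from the others, 19 were flagged. The cut-off is made for independent normal values, which FPKM of transcripts of the same gene are not, so no chance rate is given. The Pln transcripts gave 7 of the 19. Pln-201 stood at 6.14 FPKM in AngII+QDG 4 (the nearest other library of the group at 306) and at 5.30 FPKM in AngII 5 (314). Pln-205 stood at 420.4 FPKM in AngII+QDG 4 (147) and at 355 FPKM in AngII 5 (147), and Pln-206 at 2.21 FPKM in AngII+QDG 4 (29.7) and at 1.20 FPKM in AngII 5 (21.2). Pln-202 stood at 9.11 FPKM in AngII 2, with the nearest at 7.40 FPKM.

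Among the transcripts of Ryr2 and Atp2a2, AngII+QDG 1 was high for Ryr2-204 at 3.54 FPKM (nearest 1.09) and for SERCA2b at 146 FPKM (nearest 83.0), and AngII 5 was low for Ryr2-207 at 0.310 FPKM (nearest 2.01). Among those of Camk2d, Camk2d-202 stood at 2.23 FPKM in Control 2 (nearest 0.670), Camk2d-225 at 0.585 FPKM in AngII 4 (nearest 0.407), Camk2d-226 at 3.06 FPKM in AngII+QDG 3 (nearest 1.93) and at 0.119 FPKM in Control 5 (nearest 0.00276), and Camk2d-228 at 1.24 FPKM in AngII+QDG 1 (nearest 0.0431).

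For the channel genes, Cacna1c-224 stood at 2.40 FPKM in AngII+QDG 2 (nearest 0.797). In AngII 2, Cacnb2-214 stood at 6.31 FPKM (nearest 0.204), the Cacnb2 gene level at 6.51 FPKM (nearest 0.284) and the log2 ratio of Cacnb2 to Cacna1c at 1.66 (nearest −0.41). No cause of these single-library values was tested.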

How the results depend on the processing

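Changes of members near the threshold rest on 5 mice per group, on partial transcript sets and on a library balance that differs between Control and the other groups. The counts below stand beside those over all genes. In AngII over Control (1639 as reported) these were 342 with the length trend removed, 0 with the covariate and 97 without Control 3 and Control 5. With the groups compared alone they were 317. In AngII+QDG over Control (2377) they were 1307 with the length trend removed, 0 with the covariate and 1203 without Control 3 and Control 5. Pathway calls in AngII over Control (16 as reported) were 4 after quantile normalization, 10 after median scaling, 4 with the groups compared alone, 1 with the length trend removed, 0 with the balance as a covariate, 2 without Control 3 and Control 5, and 3 without AngII 5 and AngII+QDG 4. Leaving out 1 library gave 2 to 20. For AngII+QDG over Control (20) they were 9 with the length trend removed, 0 with the covariate and 13 without Control 3 and Control 5, and 13 to 27 with 1 library left out. Between AngII+QDG and AngII (0) they were 1 at a pseudocount of 0.1 FPKM, and 0 to 1 with 1 library left out, the 1 being Cacnb3 both times. That gene was below the 0.5 FPKM of the filter in every AngII+QDG library.

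Members called in AngII over Control (2) were 0 with these groups alone, with the length trend removed, with the covariate, without Control 3 and Control 5, and without AngII 5 and AngII+QDG 4, and 0 to 3 with 1 library left out. For AngII+QDG over Control (1) they were 2 after quantile normalization, 0 with the length trend removed, with the covariate and without Control 3 and Control 5, and 0 to 3 with 1 library left out. Between AngII+QDG and AngII they stayed at 0. Member transcripts called in AngII over Control (3) were 5 at a pseudocount of 0.1 FPKM, 1 after quantile normalization, 0 with the covariate, without Control 3 and Control 5 and without AngII 5 and AngII+QDG 4, and 1 to 8 with 1 library left out. All 3 are the Camk2d transcripts whose tests are not given above, so these counts only describe calls and lend no weight to them. For AngII+QDG over Control (7) they were 3 after quantile normalization, 0 with the covariate, 2 without Control 3 and Control 5, 3 without AngII 5 and AngII+QDG 4, and 3 to 9 with 1 library left out. Between AngII+QDG and AngII (0) the range was 0 to 1, the 1 being Camk2d-226 without AngII 4 (1.21, adjusted p = 0.0482 by limma). The cause of these shifts was not tested.

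Replicate numbers are shared by the groups, but the correlation of same-numbered libraries was −0.10 to 0.09 and none exceeded 0.1, so the libraries share only a number. With the replicate block, 1 member was called in AngII over Control (Ryr2, adjusted p = 0.0360, and not Camk2d, adjusted p = 0.0560), and 1 in AngII+QDG over Control (Ryr2, adjusted p = 0.0476, and not Camk2d, adjusted p = 0.0603), with 5 pathway genes in AngII over Control and 15 pathway genes in AngII+QDG over Control.

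Signs turned as follows. In AngII over Control, Atp2a2 was −0.037 with median scaling, −0.078 with the length trend removed and −0.15 with the covariate. Cacna1c was −0.18 (length), −0.75 (covariate) and −0.29 (without Control 3 and Control 5), and −0.028 to 0.51 with 1 library left out, the lowest without Control 5. Pln was 0.055 (quantile), 0.028 (weights), 0.0082 (without Control 3 and Control 5) and 0.059 (without AngII 5 and AngII+QDG 4), and −0.079 to 0.059 with 1 library left out. Mcur1 was −0.014 (length), Atp1b1 −0.016 (covariate) and S100a1 0.034 (covariate).

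For AngII+QDG over Control, Atp2a2 was −0.042 (length) and −0.14 (covariate), Cacna1c −0.24, Cacnb2 −1.18, Ryr2 −0.39 and S100a1 0.033 (all covariate), Casq2 −0.056 (median) and −0.13 (covariate), Mcur1 −0.023 (median) and −0.034 (length), and Pln −0.24 (median) and −0.047 (length). The log2 ratio of Cacnb2 to Cacna1c was 0.29 over shared transcripts, 0.0099 without Control 3 and Control 5, and −0.76 to 0.31 with 1 library left out. Between AngII+QDG and AngII, the ratio of Pln to Atp2a2 was −0.0026 to 0.093 with 1 library left out.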
